A study of Mus musculus with 2 samples.

Results

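The lipid-associated macrophage (LAM) spots were 173 of the 3469 spots with 5000 or more UMIs on the liver section of an HFD mouse, out of 7286 spots over tissue in the whole series. They were chosen by the summed UMIs of Gpnmb, Mmp12 and Trem2 divided by all UMIs of the spot, and the highest 5% were taken. A UMI stands for one captured RNA molecule, and a Visium spot is a small patch of tissue with RNA from a number of cells, so these are patches rich in 3 transcripts and not isolated cells. The comparison group was the 1680 spots of the same section with the same minimum depth and 0 UMIs of the 3 genes, called zero spots here. The remaining 1616 spots had at least 1 UMI of the 3 genes and fell below the highest 5%.

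The study fed male C57BL/6J mice, bought at 5 weeks of age, either a normal chow diet (NCD) or a high-fat diet (HFD) that causes nonalcoholic fatty liver disease. After 14 weeks of diet, both groups received distilled water by mouth for 8 weeks as the untreated arms of a drug trial, and 1 mouse per diet gave 1 liver section of 10 µm. On tissue lay 3594 spots of the HFD section, at a median of 18549 UMIs each, and 3692 of the NCD section, at a median of 4187.5. With 1 mouse per diet there was no replicate and no test. The effects of diet, mouse and section cannot be told apart, and whether the sections shared a slide is not given in the sources used here. Every interval below is an exact 95% interval for counting error alone. A higher level in a spot may come from more cells of a type or from more RNA per cell, and these cannot be told apart either.

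LAMs are macrophages that take up lipid and cell debris in fatty tissue, and in fatty liver they are described around dying, fat-laden hepatocytes. TREM2 is a lipid-sensing receptor that signals through the adaptor DAP12 (Tyrobp), GPNMB is a glycoprotein of lysosomes and the cell surface, and MMP12 is an elastase secreted by macrophages. Resident Kupffer cells, marked by Clec4f and Timd4, are the other main macrophages of the liver, and much of the lobule consists of hepatocytes whose genes differ between the portal and the central vein.

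The 3 genes lie on different mouse chromosomes, and their promoters are printed because these 3 transcripts define the spots and each was found more often in spots that held another of the 3. In RefSeq on GRCm38.p6, all on the plus strand, Gpnmb spans chr6:49036518-49058182, Mmp12 chr9:7344397-7360461 and Trem2 chr17:48346401-48352276. Each line below gives the 250 bases before a start site, 5′ to 3′, at chr6:49036268-49036517 for Gpnmb, chr9:7344147-7344396 and chr9:7347124-7347373 for the pair of Mmp12 start sites, and chr17:48346151-48346400 for Trem2. Capitals mark matches to any of 4 motifs searched on both strands, CACGTG, the E-box bound by MiT family factors such as TFEB, and its longer form TCACGTG, the AP-1 letters TGANTCA, and the letters GAGGAAGT of PU.1, a master factor of macrophages. The longer E-box contains the shorter one.
Gpnmb: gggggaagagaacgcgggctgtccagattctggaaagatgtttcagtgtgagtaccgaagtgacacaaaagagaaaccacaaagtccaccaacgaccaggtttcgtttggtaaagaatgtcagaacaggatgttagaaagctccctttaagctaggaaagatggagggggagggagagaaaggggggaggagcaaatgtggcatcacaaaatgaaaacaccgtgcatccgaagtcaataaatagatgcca
Mmp12, first start site: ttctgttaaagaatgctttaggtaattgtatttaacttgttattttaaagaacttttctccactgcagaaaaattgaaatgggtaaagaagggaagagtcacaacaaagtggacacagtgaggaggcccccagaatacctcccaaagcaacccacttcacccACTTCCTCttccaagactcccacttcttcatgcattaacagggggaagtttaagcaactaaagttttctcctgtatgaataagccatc
Mmp12, second start site: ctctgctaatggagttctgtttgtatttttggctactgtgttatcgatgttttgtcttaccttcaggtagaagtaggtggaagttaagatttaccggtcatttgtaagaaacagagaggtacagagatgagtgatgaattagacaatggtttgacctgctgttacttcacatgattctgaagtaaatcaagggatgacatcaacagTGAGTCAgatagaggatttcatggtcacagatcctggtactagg
Trem2: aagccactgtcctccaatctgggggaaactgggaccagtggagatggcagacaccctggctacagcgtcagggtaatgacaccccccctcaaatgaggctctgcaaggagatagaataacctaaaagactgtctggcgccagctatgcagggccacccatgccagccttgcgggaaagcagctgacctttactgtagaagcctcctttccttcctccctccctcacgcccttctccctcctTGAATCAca
The first Mmp12 window held the PU.1 letters on the opposite strand from base -88 to -81, the second held TGAGTCA from -44 to -38, and the Trem2 window held TGAATCA from -9 to -3. The Gpnmb window held none of the 4, and no E-box was found in any of these windows. Among all 32851 RefSeq windows of this length, 6.02% held CACGTG, 3.13% TCACGTG, 6.75% TGANTCA and 2.44% GAGGAAGT. Every match is a description of letters and says nothing of binding.

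Members had 2 to 34 UMIs of the 3 genes, with a median of 6, which came to between 208 and 1239 UMIs per 1000000 UMIs of the spot (CPM) with a median of 286. These values chose the spots and are given as a description. The spot ranked 173 had 208.0 CPM from 3 of its 14424 UMIs, and the next one, just outside, had 207.6 CPM from 3 of 14448. The boundary therefore ran through a continuous range. At the low end, 23 members rested on only 2 UMIs, 150 had 3 or more and 46 had 10 or more. A zero spot is not a spot without these transcripts, because a count of 0 at the zero spots' median depth of 15890 UMIs allows up to 189 CPM by 3 counts. At the lowest depth of a zero spot, 5024 UMIs, it allows up to 597 CPM, which is above the level of the lowest member.

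**Figure D1:**
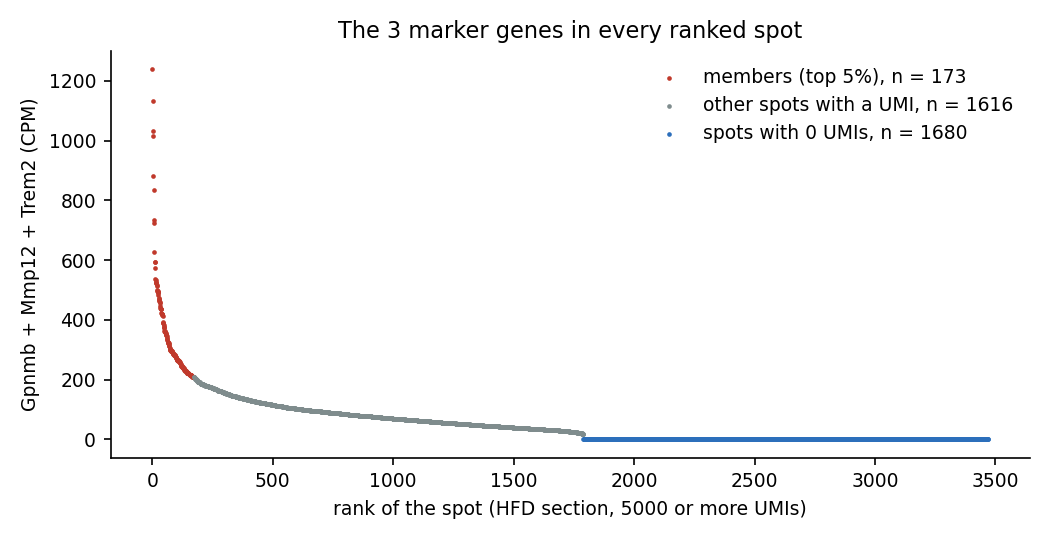
The vertical axis is the summed CPM of Gpnmb, Mmp12 and Trem2 in each HFD spot, and the horizontal axis is the rank of the 3469 spots with 5000 or more UMIs. The 173 members (red) run from 1239 down to 208.0 CPM with no gap before the 1616 other spots with a UMI (grey), and the 1680 zero spots (blue) lie at 0.

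All 3 genes gave UMIs to the members, and the counts here are a description, since the same UMIs chose the spots. Pooled over members, Mmp12 was at 154 CPM (141 to 167), Gpnmb at 126 (115 to 138) and Trem2 at 74.4 (65.8 to 83.8). Mmp12 was found in 138 members, Gpnmb in 136 and Trem2 in 132. All 3 were found together in 83 members, exactly 2 of them in 67, and a single gene in 23. Within 1 spot the highest counts were 21 for Gpnmb, 20 for Mmp12 and 6 for Trem2.

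Since the sum chose the spots, the tie between the genes was measured over all HFD spots after each was drawn down at random to 5000 UMIs. Of 327 spots with Gpnmb, 17.7% (13.8 to 22.3) also had Mmp12, against 8.08% (7.15 to 9.09) of the 3142 spots without it. Trem2 was found in 11.2% (7.94 to 15.3) of 312 spots with Mmp12 and in 6.34% (5.51 to 7.24) of those without. For Trem2 given Gpnmb the shares were 9.79% (6.79 to 13.5) and 6.46% (5.63 to 7.38), whose intervals overlap at this depth. At 10000 UMIs per spot, where 3025 spots remained, they were 20.2% (16.8 to 24.1) and 11.5% (10.2 to 12.8), which do not overlap.

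A second look used UMIs that had no part in the choice. The UMIs of every spot were split at random into 2 parts of 50%, spots were ranked on the first part and measured on the second. The 173 spots chosen this way had 400.1 CPM of the 3 genes in the part that chose them and 268 CPM (244 to 293) in the other part. The 2289 spots with 0 UMIs in the first part had 37.0 CPM (34.5 to 39.7) in the second. The level of a chosen spot was thus overstated by the choice, and the difference from spots that began at 0 remained in UMIs not used for it.

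The same 3 genes were far rarer on the NCD section. Over tissue, 125 of 29037988 NCD UMIs came from them, or 4.30 CPM (3.58 to 5.13), against 56.9 CPM (55.2 to 58.7) in the HFD section. The log2 ratio of HFD to NCD was 3.72 (3.47 to 3.99) for the 3 together, 4.50 (3.94 to 5.12) for Gpnmb, 3.95 (3.51 to 4.44) for Mmp12 and 2.89 (2.504 to 3.29) for Trem2. With every spot at 5000 UMIs the ratio for the 3 together was 3.43. Of 1695 NCD spots with 5000 or more UMIs, 5 reached the level of the lowest HFD member, or 0.295% (0.0958 to 0.687). With every spot at 5000 UMIs, 21.9% of HFD spots and 2.42% of NCD spots had a UMI of the 3. Spots off tissue around the HFD section, where no cells should lie, had 38.1 CPM (30.4 to 47.3) of the 3 from 83 UMIs. Their median depth was 1175.5 UMIs, and they held 2.93% of the UMIs of the HFD section. Those around the NCD section had 4.95 CPM (3.43 to 6.91), no lower than over NCD tissue. Their median depth was 3383 UMIs, near the 4187.5 over NCD tissue, and they held 19.1% of the UMIs of that section. The NCD levels given here and below were not corrected for this. The part of RNA from outside the spot in the counts of 1 or a few UMIs was not tested.

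Outside the 3 genes, 9870 genes had at least 100 UMIs over members and zero spots. Of these, 271 (2.75%) were at least 2-fold higher in members and 34 (0.344%) were at 0.5 times or less. The median log2 ratio of all tested genes was 0.08, with quartiles of -0.09 and 0.27, so most genes hardly differed between the groups of spots. At least 3-fold higher were 47 genes, and 12 were at least 4-fold higher. When spots were chosen on 50% of their UMIs and measured on the rest, 163 genes were 2-fold higher and 91 were at 0.5 times or less. Fewer UMIs stood behind each gene there, so these counts cannot be set directly against 271 and 34. Members were somewhat deeper than zero spots, with medians of 19066 and 15890 UMIs per spot, and had 3904 and 3389 genes per spot. With every spot at 5000 UMIs, fewer genes pass 100 UMIs, and 99 were then 2-fold higher and 62 at 0.5 times or less. The mitochondrial share was 5.35% in members and 5.53% in zero spots by the median.

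The 15 genes with the highest ratio were taken among those with 200 or more UMIs and the same direction at 5000 UMIs per spot, and 8 of them were in none of the gene lists. They were led by Lgals3 (galectin-3), a secreted lectin of macrophages, at 219 CPM in members and 43.4 in zero spots, a log2 ratio of 2.33 (2.20 to 2.46). Its level per spot ran from 0 to 938 CPM in members with a median of 161, and from 0 to 691 with a median of 0 in zero spots, so the groups overlapped. The NCD section had 17.2 CPM of it. This and the NCD levels below are over the 1695 NCD spots with 5000 or more UMIs. Sprr1a, a cornified envelope gene of stressed epithelia, was next with 43.8 and 9.01 CPM, a log2 ratio of 2.28 (1.99 to 2.57). It was found in 62 of 173 members and 208 of 1680 zero spots, and with 1 UMI in all these NCD spots. Capg, an actin-capping protein of macrophages, had a log2 ratio of 2.14 (1.83 to 2.45). Lpl, which splits triglycerides of lipoproteins, was at 90.0 CPM against 20.9, a log2 ratio of 2.11 (1.91 to 2.30), and was found in 117 of 173 members and 471 of 1680 zero spots.

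The others of these 15 had log2 ratios from 1.71 to 2.03. Among them were the chemokine Ccl6 at 139 against 34.1 CPM, the eosinophil-associated ribonuclease Ear2 at 42.7 against 10.6, the lysosomal glycoprotein Cd68 at 67.8 against 19.3 and the inhibitory receptor Cd300a at 24.1 against 7.07. The anti-apoptotic Bcl2a1b, the inhibitory receptor Lilrb4a, Cyth4, the peptide transporter Slc15a3, Evl, the macrophage membrane protein Ms4a7 and the platelet chemokine Pf4 made up the list. Bcl2a1b, Ear2 and Lilrb4a have close copies in the mouse genome, among which reads may be split or lost, so their levels are uncertain. Drawn down to 5000 UMIs, where a ratio above 0 was part of their choice, the log2 ratios of the 15 ran from 1.02 for Evl to 2.41 for Lilrb4a.

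**Figure D2:**
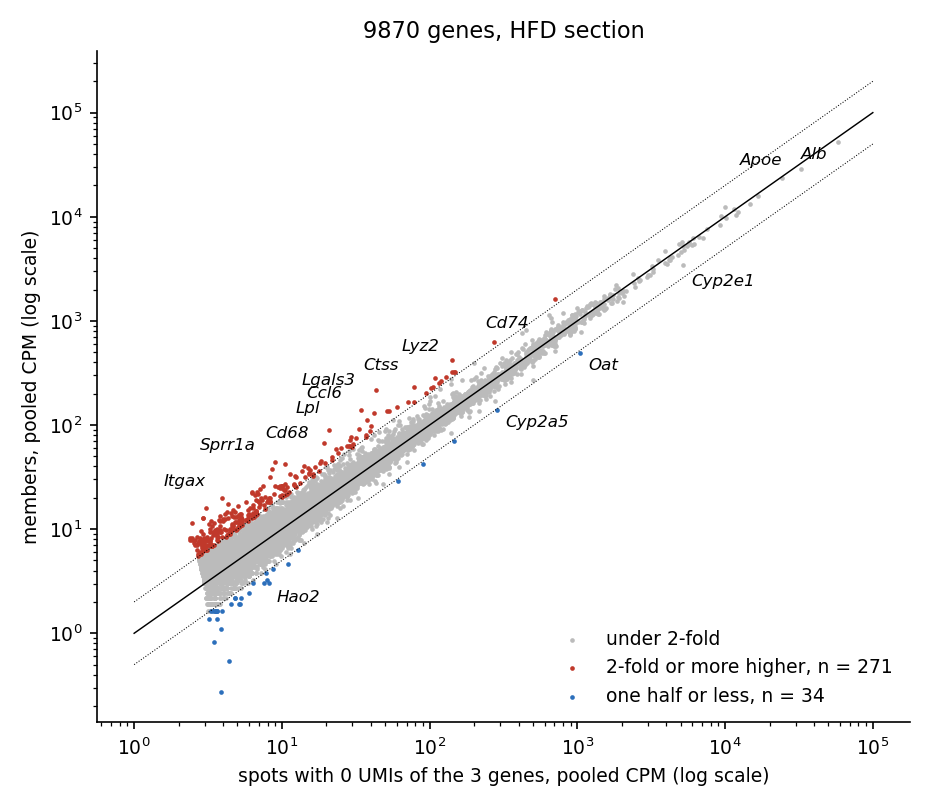
Each point is 1 of 9870 genes of the HFD section, with pooled CPM in the 1680 zero spots on the horizontal log axis and in the 173 members on the vertical log axis. The solid line marks equality and the dotted lines 2-fold, and the 271 genes above the upper line (red), such as Lgals3 and Lpl, outnumber the 34 below the lower one (blue), such as Oat.

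Of the 271 genes, 200 matched a promoter table entry by symbol, giving 262 windows. GAGGAAGT was found in 9.16% of these windows and in 2.44% of the 10108 windows of all tested genes with an entry, and TGANTCA in 11.1% and 4.67%. CACGTG was found in 4.58% and 8.60%, and TCACGTG in 3.44% and 5.15%. These shares describe letters in the 250 bases before each start site, and many of the genes are expressed in the same cells.

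Macrophage transcripts as a whole were higher in the LAM spots. Of 18 pan-macrophage genes, 12 were at least 2-fold higher (2.75% of all genes were), none was at 0.5 times or less, and their median log2 ratio was 1.18 against 0.08 for all genes. Their sum was 1918 CPM in members and 864 in zero spots, a log2 ratio of 1.15 (1.11 to 1.19), and the NCD level was 474 CPM. Per spot it ranged from 474 to 6623 CPM with a median of 1584 in members, and from 0 to 5068 with a median of 819 in zero spots. Of the members, 94.8% lay above the median zero spot, although the groups overlapped. Adgre1, which encodes F4/80, was at 39.7 against 20.03 CPM, a log2 ratio of 0.99 (0.71 to 1.25), and Csf1r, the receptor that keeps macrophages alive, at 80.2 against 41.7. Lyz2, lysozyme, was at a median of 325 CPM per member and 119 per zero spot.

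Genes commonly named for LAMs, other than the 3 of the rule, were split between a strong and a flat set. Of 24 measured, 11 were at least 2-fold higher and none at 0.5 times or less, and the median log2 ratio was 0.84. Itgax, which encodes CD11c, was at 19.7 CPM in members and 3.95 in zero spots, a log2 ratio of 2.32, and had a UMI in 52 of 173 members. The tetraspanin Cd63 had a log2 ratio of 1.56 (1.39 to 1.72), the fatty acid carrier Fabp5 of 1.46 (1.28 to 1.64) and the matricellular protein Spp1 (osteopontin) of 1.14 (1.04 to 1.23). Atp6v0d2, a subunit of the proton pump of lysosomes, had one of 1.64, and the tetraspanin Cd9 one of 0.78 (0.56 to 1.00). The lipid droplet coat Plin2 (0.18), the lipase Lipa (0.18) and the scavenger receptor Cd36 (0.23) lay below the upper quartile of all genes, 0.27. The lipid carrier Fabp4 (0.31) lay just above it. Hepatocytes or endothelial cells express these 4 genes as well. The list's sum gave a log2 ratio of 0.27, since ferritin light chain Ftl1, with 0.12, held 69.4% of its UMIs. Without Ftl1 the ratio was 0.59 (0.57 to 0.61).

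In the pathway of the receptor itself, the adaptor and the kinase were higher. Tyrobp (DAP12) was at 281 CPM in members and 109 in zero spots, a log2 ratio of 1.37 (1.27 to 1.47), and was found in 163 of 173 members and 1272 of 1680 zero spots. The kinase Syk had a log2 ratio of 1.74, the second adaptor Hcst 1.28 and the phosphatase Inpp5d 1.12, while the ligands Apoe and Clu stood at -0.02 and 0.13. In all, 5 of 10 measured genes of this list were at least 2-fold higher, with a median of 0.88. That median was 0.42 with every spot at 5000 UMIs, 0.47 among spots of 15000 to 25000 UMIs, 0.55 in the UMIs not used for the choice and 0.57 against all other spots. The sum gave 0.01, since Apoe held 91.8% of the list's UMIs, and 0.38 (0.35 to 0.42) without it. The further signalling genes Plcg2, Btk and Card9 had under 100 UMIs over both groups, with 12, 9 and 2 in members.

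Lysosomal genes were broadly but mildly higher. Of 29, only 3 passed 2-fold (Atp6v0d2, Ctss and Cd63), yet 22 had an interval above 0 and none below, and the median log2 ratio was 0.35. Their sum was 8443 CPM in members and 6233 in zero spots, a log2 ratio of 0.44 (0.42 to 0.46), and 92.5% of members lay above the median zero spot. Ctss, a protease of antigen-presenting cells, was at 233 against 77.8 CPM, Ctsd at 759 against 420 and Ctsb at 1197 against 806. Lamp2 (0.02) and Atp6v1h (-0.05) were level with zero spots. Of 6 measured regulators of lysosome genes, none passed 2-fold, with log2 ratios from 0.50 for Tfeb to -0.18 for Mtor. Mitf, with 8 UMIs in members and 66 in zero spots, was too rare to compare.

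For cholesterol and lipid handling, 4 of 21 genes were at least 2-fold higher and the median was 0.28, or 0.13 among spots of 15000 to 25000 UMIs. These were Lpl, Fabp5, Soat1, which esterifies cholesterol for storage, and the cholesterol exporter Abcg1. Soat1 was at 17.5 against 4.32 CPM, a log2 ratio of 2.02 (1.56 to 2.46), and Abcg1 at 25.4 against 9.35, one of 1.44 (1.09 to 1.79). The scavenger receptor Msr1 was at 0.99 and the exporter Abca1 at 0.28, while the HDL receptor Scarb1, strong in hepatocytes, was at -0.13. Among efferocytosis genes 4 of 13 passed 2-fold, led by Cd300a (1.77) and the receptor Axl (1.17), and Pros1 (0.05) was lowest. Of metalloproteinases and inhibitors other than Mmp12, 2 of 7 passed, Timp1 (1.67) and Mmp23 (1.22), and Mmp19 stood at 0.03. Mmp13 had 26 UMIs in members and 60 in zero spots, 7.11 against 2.01 CPM, below the minimum of 100.

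**Figure D3:**
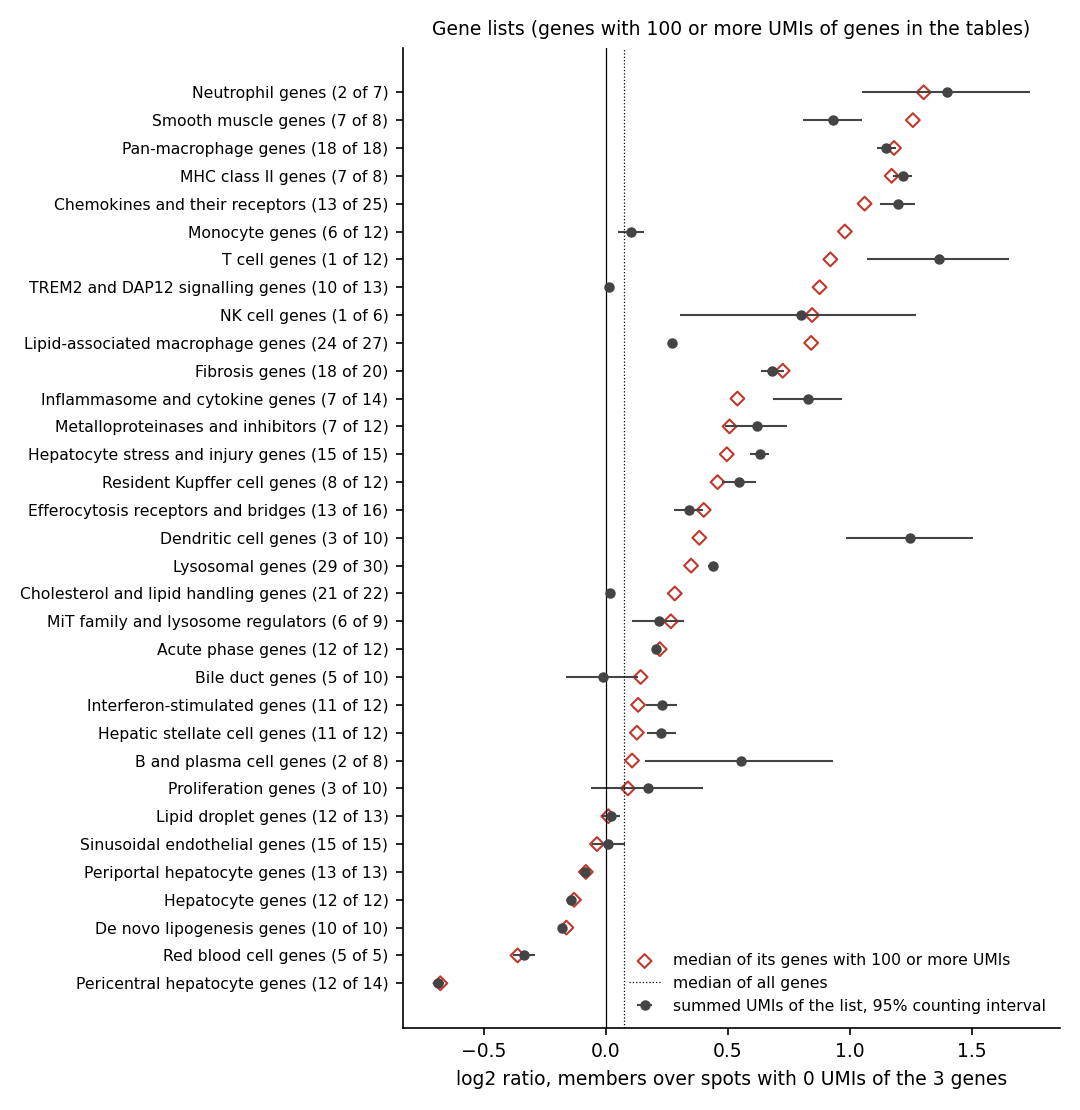
Log2 ratios of members to zero spots for 33 gene lists, as the ratio of the summed UMIs (points, bars for the 95% counting interval) and as the median of the genes with 100 or more UMIs (diamonds), ordered by that median. Pan-macrophage, MHC class II, chemokine and neutrophil lists lie beyond 1 on both measures and pericentral hepatocyte genes lowest at -0.69 and -0.68, and the points of 4 lists led by 1 abundant gene fall well below their diamonds.

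Kupffer cell genes were divided. The secreted Cd5l, made by Kupffer cells and other macrophages, was at 227 CPM in members and 102 in zero spots, a log2 ratio of 1.16, the 1 gene of 8 past 2-fold. Clec1b had 0.82 and Vsig4, a complement receptor, 0.61 (0.26 to 0.94), which turned to -0.33 with every spot at 5000 UMIs. Clec4f, the lectin most particular to Kupffer cells, was at 54.4 against 49.5 CPM, a log2 ratio of 0.14 (-0.08 to 0.35) whose interval holds 0, and at 51.4 CPM in the NCD section. Folr2 (0.48), Slc40a1 (0.43) and C6 (0.29) were also higher, while Hpgd was lower, at -0.29 (-0.49 to -0.11). The remaining markers were under 100 UMIs over both groups. Timd4 was at 0.821 against 0.502 CPM, from 3 and 15 UMIs, and Marco at 0.821 against 1.78, from 3 and 53, and the intervals of both ratios hold 0. Cd163 was at 1.09 against 0.368 CPM, from 4 and 11 UMIs, with an interval that also holds 0. Spic, a factor of iron-handling macrophages, was at 4.10 against 1.07 CPM, from 15 and 32 UMIs, a log2 ratio of 1.94 (0.95 to 2.86). The sum of the list gave 0.55 (0.48 to 0.61), and 0.23 (0.15 to 0.32) without Cd5l. The list was at 552 CPM in members, 378 in zero spots and 481 in the NCD section.

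The measured genes of the monocyte list were higher, apart from Fn1, but several rested on few UMIs. Of 6 measured, 3 were at least 2-fold higher, with S100a4 at 1.65 and the chemokine receptor Ccr2 at 8.21 against 2.78 CPM, a log2 ratio of 1.56, and Ly6c2 was at 0.93 (0.19 to 1.62). Fn1, also a hepatocyte product, held 90.1% of the list's UMIs and stood at -0.03, so the sum gave 0.10 (0.05 to 0.16) and the list without Fn1 1.00 (0.86 to 1.14). Outside Fn1, most UMIs of the list in members came from S100a6 (223), Plac8 (158) and S100a4 (79). Ccr2 gave 30, Ly6c2 22 and Cx3cr1 8. Which cells these transcripts came from was not tested.

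Antigen presentation genes were higher throughout the list. All 7 measured MHC class II genes were at least 2-fold higher, from H2-Aa (1.13) to Ctss (1.58), with a sum of 1824 CPM in members and 785 in zero spots, which is a log2 ratio of 1.22 (1.18 to 1.26). The NCD level was 489 CPM. Cd74, the invariant chain, had a median of 543 CPM per member and 226 per zero spot. Single zero spots nevertheless reached 14060 CPM of the list, above the highest member at 7452.

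Chemokines and their receptors followed, with 8 of 13 at least 2-fold higher and a sum of 539 against 235 CPM, a log2 ratio of 1.20 (1.12 to 1.27). Besides Ccl6, Cxcl14 had 1.61 and the monocyte attractant Ccl2 1.14 (0.72 to 1.53), while Cxcl10 (0.00) and Cxcl1 (-0.04) were level. Inflammasome and cytokine genes were at 136 against 76.7 CPM, with the adaptor Pycard at 1.55 and the interleukin-1 antagonist Il1rn at 1.51 and with Il1b at 0.14. Interferon-stimulated genes had a median of 0.13 with none of 11 past 2-fold, from 0.98 for Gbp2 to -0.61 for Ifit3.

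Transcripts of other leukocytes were also more frequent in the LAM spots but rested on few UMIs. T cell genes summed to 35.8 CPM (131 UMIs) in members and 13.9 in zero spots, a log2 ratio of 1.37 (1.07 to 1.65), of which Cd3e gave 5 UMIs. Neutrophil genes were at 26.0 against 9.85 CPM (95 UMIs in members, of which 40.0% lay in 5 spots), with Ly6g at 0 in both groups. NK cell genes gave 45 UMIs and B and plasma cell genes 68, with log2 ratios of 0.80 (0.30 to 1.27) and 0.55 (0.16 to 0.93), and the second turned to -0.057 at 5000 UMIs per spot. The dendritic cell list gave 1.25 with Itgax and 0.73 (0.38 to 1.06) without it. The NCD section had 20.4 CPM of T cell genes and 46.2 of B and plasma cell genes, both above the HFD zero spots. The part of these cells in the macrophage results was not tested.

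**Figure D4:**
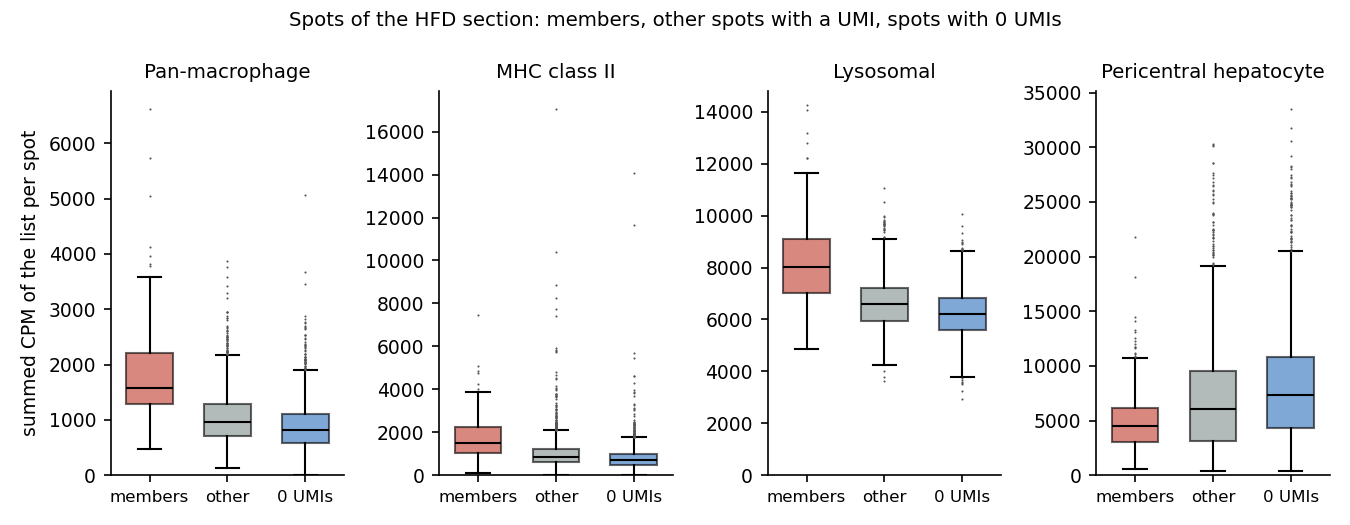
Summed CPM per spot of 4 gene lists in the 173 members, the 1616 other spots with a UMI of the 3 genes and the 1680 zero spots. Boxes span the quartiles with the median as a line, whiskers reach 1.5 times the box and points are spots beyond, and the member medians are highest for pan-macrophage (1584 CPM), MHC class II (1506) and lysosomal genes (8011) and lowest for pericentral genes (4490), while the ranges of the groups overlap.

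Fibrosis genes were higher in the LAM spots, with 7 of 18 at least 2-fold higher and a sum of 1151 against 718 CPM, a log2 ratio of 0.68 (0.63 to 0.73), and the NCD level was 310 CPM. Col1a1, the main fibrillar collagen, was at 58.8 against 23.3 CPM, a log2 ratio of 1.33 (1.11 to 1.56), and was found in 80 of 173 members and 452 of 1680 zero spots. Timp1 (1.67) and Col6a3 (1.41) were highest and Dcn (0.38) and Col14a1 (0.32) lowest. Acta2, found in myofibroblasts and vessel walls, was at 60.2 against 25.2 CPM, but its member levels ran from 0 to 2516 CPM with a median of 0.

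Smooth muscle genes moved with this group. Their sum was 193 against 101 CPM, a log2 ratio of 0.93 (0.81 to 1.05), and 5 members held 41.6% of those UMIs. Without the 5% of spots highest in smooth muscle genes, a choice made after seeing the data, the fibrosis ratio was 0.58. Stellate cell genes were slightly higher in their sum, a log2 ratio of 0.23 (0.17 to 0.29), with none of 11 past 2-fold and a median of 0.13. Dcn held 47.9% of the list's UMIs, and without it the sum gave 0.08 (-0.01 to 0.17). Pdgfrb stood at 0.48 (-0.11 to 1.03). Sinusoidal endothelial genes (median -0.04) and bile duct genes (median 0.14, with 6 UMIs of Krt7 and 12 of Krt19 in members) did not differ beyond counting error in their sums.

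Hepatocyte RNA still made up much of each LAM spot. The 12 hepatocyte genes summed to 138574 CPM in members and 152892 in zero spots, a log2 ratio of -0.14, or -0.126 without Alb. Alb had a median of 51770 CPM per member and 51712 per zero spot, with upper quartiles of 58183 and 62914. Per spot the list ranged from 98265 to 178514 CPM in members, all within the range of zero spots. The pericentral genes stood lowest. They were at 4872 against 7845 CPM, a log2 ratio of -0.69 (-0.71 to -0.67), 3 of 12 were at 0.5 times or less (0.344% of all genes were) and 11 had an interval below 0. Oat was at 486 against 1049 CPM, a log2 ratio of -1.11 (-1.18 to -1.04), Slc1a2 had -1.11, the cytochrome Cyp2c37 -1.04 and glutamine synthetase Glul -0.90. Cyp2e1 had -0.60. The periportal list gave -0.09 with none of 13 past 2-fold in either direction. Of the 15 genes with the lowest ratios, Cyp2a5, Lhpp and these 3 pericentral genes had over 100 UMIs in members, and the other 10, from Hao2 (-1.44) to E030030I06Rik (-0.97), had 11 to 23.

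The position of the spots in the lobule was therefore described. All 3469 spots were ordered by the pericentral share of pericentral and periportal UMIs and cut into 3 equal parts. The most periportal part held 77 members, the middle 68 and the most pericentral 28, or 44.5% (37.0 to 52.2), 39.3% (32.0 to 47.0) and 16.2% (11.0 to 22.5), whereas zero spots numbered 472, 560 and 648. The 3 genes themselves were at 60.5 CPM (57.7 to 63.3), 65.1 (61.7 to 68.7) and 44.3 (41.5 to 47.3) in these parts. Their median depths were 25118, 15545.5 and 17023.5 UMIs, and the part of depth in the counts of members was not tested.

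Within each part, members were again compared with zero spots. The pan-macrophage ratio was 1.504, 0.87 and 0.97 from the periportal to the pericentral part, that of MHC class II genes 1.40, 0.99 and 0.99, of lysosomal genes 0.47, 0.40 and 0.47, and of fibrosis genes 0.83, 0.58 and 0.57. Hepatocyte genes were lower in members in all 3 parts (-0.23, -0.13 and -0.11), and periportal genes were as well (-0.27, -0.23 and -0.28). For pericentral genes the direction turned, with 0.26 in the periportal part against -0.39 and -0.32 in the others. The parts were cut on the pericentral and periportal lists, so those last values are a description only.

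Genes of the hepatocyte stress and injury list, which also holds Vim and Anxa2, were higher. They were at 1643 against 1061 CPM, a log2 ratio of 0.63 (0.59 to 0.67), and their NCD level was 413 CPM. Each spot mixes RNA of several cell types, and which of them gave these transcripts was not tested. Of 15, 3 passed 2-fold, the stress factor Atf3 (1.29), heme oxygenase Hmox1 (1.29), which macrophages also make, and Ly6d (1.17). Trib3 was lowest at -0.55. Within the parts of the lobule the ratio was 0.57, 0.53 and 0.79. Acute phase genes differed less (0.20), led by Saa3 (1.03) and Lcn2 (0.99). Lipid droplet genes went both ways, from Hilpda at 0.91 and Plin2 at 0.18 to G0s2 at -0.28 and Cidea at -0.42, with none of 12 past 2-fold and a sum at 0.02 (-0.02 to 0.06). Lipogenesis genes summed to -0.18 (-0.20 to -0.16), with Scd2 at 1.13, which was -0.04 with every spot at 5000 UMIs. Proliferation genes had a ratio of 0.17 (-0.06 to 0.40), which holds 0 at this depth, and red blood cell genes -0.34.

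The lists were then followed along the ranking. From the 1095 lowest spots with a UMI, to the 521 spots between the highest 20% and 5%, the 173 members and the 35 spots of the highest 1%, the pan-macrophage ratio to zero spots was 0.15, 0.49, 1.15 and 1.60. MHC class II genes gave 0.23, 0.66, 1.22 and 1.55, lysosomal genes 0.06, 0.17, 0.44 and 0.67, and Kupffer cell genes 0.03, 0.18, 0.55 and 0.97. Fibrosis genes gave 0.16, 0.35, 0.68 and 0.78. Smooth muscle genes did not follow this order, with -0.16, 0.39, 0.93 and 0.14 (-0.17 to 0.45), the last from 90 UMIs. Pericentral genes were at -0.32, -0.29, -0.69 and -0.73. Neighbouring groups differ in depth, with medians of 23979, 18862, 19066 and 23930 UMIs, and the highest 1% are part of the members.

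**Figure D5:**
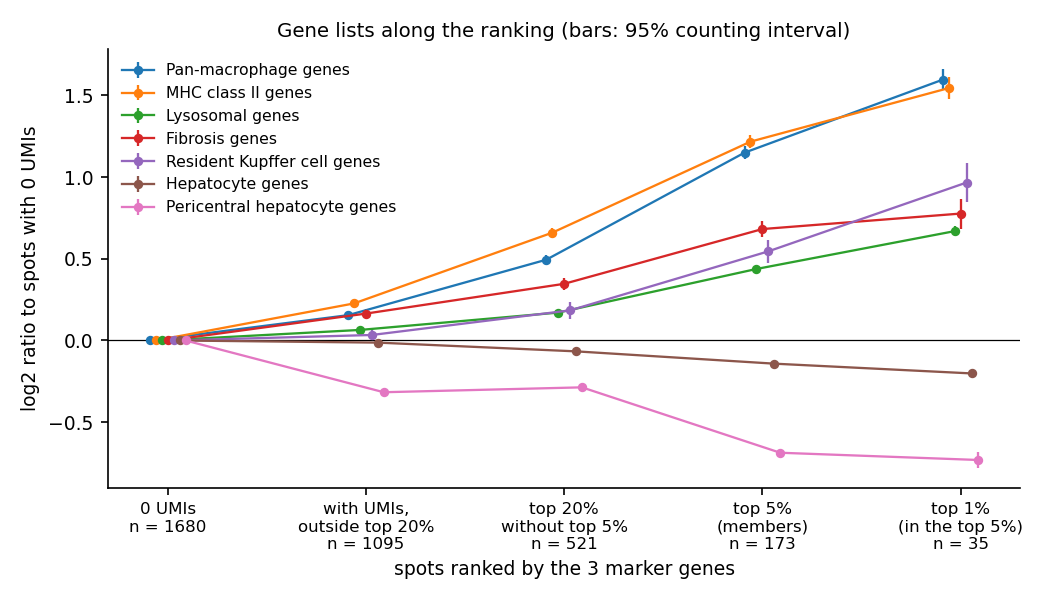
Log2 ratio to zero spots (vertical axis) of 7 gene lists in groups of spots ordered by the 3 marker genes (horizontal axis), with bars for the 95% counting interval. Pan-macrophage genes go from 0.15 to 1.60 and MHC class II genes from 0.23 to 1.55, while pericentral hepatocyte genes reach -0.73.

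The overlap with spots ranked on other genes was counted, taking the highest 173 spots each time. Members made up 72 of the highest spots for lysosomal genes (41.6%, 34.2 to 49.3), 53 for pan-macrophage genes (30.6%, 23.9 to 38.1), 48 for the LAM gene list (27.7%, 21.2 to 35.1), 46 for MHC class II genes and 42 for chemokines, where 5% of all spots were members. Fibrosis genes shared 25, smooth muscle genes 19, Kupffer cell genes 21 and pericentral genes 2. Of the 173 spots highest in pan-macrophage genes, most were thus outside the highest 5% for the 3 genes. Pooled with the members among them, these spots still had 196 CPM (182 to 211) of the 3 genes. All HFD spots of 5000 or more UMIs had 57.1 CPM.

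Over all 3469 spots, the 10 genes whose CPM ranked most like that of the 3 were Tmsb4x, Lyz2, Cd74, Psap, Lgals3, Ctss, Ly6d, H2-Ab1, Tyrobp and Cd63. Their Spearman correlations ran from 0.29 to 0.20 among 10039 genes with a median of 0.03, and from 0.16 to 0.08 with every spot at 5000 UMIs. The points are spots of 1 section that share a library and differ in depth, and correlations of this size in sparse counts are given only to show which genes came first.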

How the data were processed

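Visium spatial transcriptomics was performed on 1 liver section per diet. Alignment, UMI counting and tissue detection were done by the authors in Space Ranger 1.3.1. The deposited files hold raw UMI counts per gene and spot without normalization. The submitters' processing notes name mm10, and the annotation is not given in the sources used here. The tables hold 32285 gene identifiers. Not used here were spot positions, images and the single-cell libraries. The spatial barcodes mark positions on the slide, and 3173 were shared by the tissue spots of both sections.

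UMIs were summed over the members or the zero spots and divided by all their UMIs (CPM). Sums had exact Poisson intervals, shares exact Clopper-Pearson intervals and ratios exact conditional binomial intervals, at the 95% level. UMIs of neighbouring spots and of 1 mouse are not independent, so these intervals cover counting error only. Genes with 100 or more UMIs over both groups were compared. Genes were named as the 3 of the rule, the highest and lowest of each list and its defining markers, the 15 highest and 15 lowest among genes with 200 or more UMIs and an unchanged direction at 5000 UMIs, and the 10 most correlated. Further list genes were named after their values were seen. Of the list genes, 2 (Clec7a and Ddit3) were not analysed here. Random draws used seed 1. The members and the 33 lists were chosen with earlier results of these data known, and genes can stand in more than 1 list. Alternatives changed the share and minimum depth of spots, the comparison spots, the depth, the weighting, the total, the genes of the rule and the filter. The calculation was tested on simulated data. Promoter windows and gene positions came from RefSeq on GRCm38.p6. The tools were numpy 2.4.6, pandas 2.3.3, scipy 1.17.1 and matplotlib 3.10.9, run under Python 3.11.15.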

Additional observations from a re-analysis of the deposited data

How the results depend on the processing

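The log2 ratios of the summed UMIs of the 7 lists that the design names kept their direction under every alternative that was run. Pericentral genes nevertheless turned within the periportal part of the lobule, and the counts of genes depended on how many UMIs stood behind them. Fn1 and Ftl1 held most UMIs of the monocyte and LAM lists, so these sums say little of the other genes. With every spot at 5000 UMIs, the median of the measured monocyte genes was 0.57 against 0.98. That of LAM genes was 0.68 against 0.84. The median of periportal genes turned from -0.08 to 0.04 among spots of 15000 to 25000 UMIs. Values below are those that left the counting interval, or moved a count by more than 1.5 times, against the values reported, which were 0.27 for LAM genes, 0.55 for Kupffer cell, 0.10 for monocyte, 0.68 for fibrosis, -0.14 for hepatocyte, -0.69 for pericentral and -0.09 for periportal genes, with 271 genes higher and 34 lower. With the highest 2.5% of spots, the lists gave Kupffer 0.76, LAM 0.34, hepatocyte -0.16 and pericentral -0.83, and 122 genes were at 0.5 times or less. With the highest 10%, the lists gave Kupffer 0.38, LAM 0.20, fibrosis 0.54, hepatocyte -0.11 and pericentral -0.50. Here 145 genes were 2-fold higher and 13 genes were at 0.5 times or less. With a minimum of 10000 UMIs per spot, the list gave pericentral -0.72. Against all other spots of 5000 or more UMIs, the lists gave LAM 0.23, fibrosis 0.56, hepatocyte -0.13, pericentral -0.52 and periportal -0.11, and 98 genes were at 0.5 times or less. With every spot at 5000 UMIs, the lists gave Kupffer 0.47, monocyte 0.18, LAM 0.23, hepatocyte -0.13, pericentral -0.62 and periportal -0.040. Here 99 genes were 2-fold higher, 62 genes were at 0.5 times or less and the 3 genes gave 3.43 between HFD and NCD. Chosen on 50% of the UMIs and measured on the rest, the lists gave fibrosis 0.59, hepatocyte -0.13, pericentral -0.45 and periportal -0.11. Here 163 genes were 2-fold higher and 91 genes were at 0.5 times or less. With only spots of 15000 to 25000 UMIs, the lists gave Kupffer 0.42, monocyte 0.18, LAM 0.22, fibrosis 0.78, hepatocyte -0.12, pericentral -0.71 and periportal -0.0063. Here 136 genes were 2-fold higher and 67 genes were at 0.5 times or less. With the mean of CPM per spot, the lists gave LAM 0.26, hepatocyte -0.12, pericentral -0.65 and periportal -0.048. Here 52 genes were at 0.5 times or less and the 3 marker genes by section gave 3.36 between HFD and NCD. With a total free of mitochondrial and the 20 most abundant genes, the lists gave LAM 0.24, hepatocyte -0.18, pericentral -0.72 and periportal -0.12. Ranked without Mmp12, the lists gave Kupffer 0.46, LAM 0.23, fibrosis 0.77, hepatocyte -0.12 and pericentral -0.58. Ranked without Gpnmb, the lists gave LAM 0.22, fibrosis 0.47, hepatocyte -0.11 and pericentral -0.54, and 52 genes were at 0.5 times or less. Ranked without Trem2, the lists gave LAM 0.26, fibrosis 0.49, hepatocyte -0.13 and pericentral -0.60, and 54 genes were at 0.5 times or less. With a filter of 20 UMIs per gene, 707 genes were 2-fold higher and 258 genes were at 0.5 times or less. Counts of genes under the alternatives are given without the number of genes compared, which changes with the UMIs and the filter. Without the 5% of spots highest in smooth muscle genes, the lists gave fibrosis 0.58, hepatocyte -0.13 and periportal -0.069. With members of 3 or more UMIs only, the list gave pericentral -0.72. Among the other lists, with every spot at 5000 UMIs the B and plasma cell genes turned to -0.057, and with the total free of the most abundant genes the TREM2 and DAP12 list turned to -0.020 and the cholesterol list to -0.018, from 0.01 and 0.02. Lists whose interval held 0 also changed sign, with ranges from -0.083 to 0.041 for lipid droplet, -0.054 to 0.12 for sinusoidal endothelial, -0.21 to 0.098 for bile duct and -0.012 to 0.35 for proliferation genes. The 15 highest and 15 lowest genes kept their direction under every alternative, of which that at 5000 UMIs was part of their choice. Vsig4 and Scd2 turned at 5000 UMIs. The leaving out of smooth muscle spots and the minimum of 3 UMIs were chosen after seeing the data. The causes were not tested, other than that drawing down, splitting and the depth window leave fewer UMIs per gene. No paired analysis was possible because each diet has 1 section. The depth limits all genes under 100 UMIs, among them Timd4, Marco, Plcg2, Btk, Tnf and most markers of T cells and neutrophils.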
